A study of Drosophila melanogaster with 16 samples.

Results

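On the large autosomal arms of the Drosophila melanogaster genome, 337 regions carried peaks of the chromatin proteins ROW, WOC, HP1c and HP1b together with a peak of the histone mark H3K4me3. The regions were chosen by measured peaks: factor peaks that overlapped by 1 bp or more were joined into regions on arms 2L, 2R, 3L and 3R, and those that held all 4 factors and met an H3K4me3 peak by at least 1 bp were kept. They were 337 of 5880 autosomal factor regions (5.73%) and of 7897 factor regions over all contigs. The presence of the factors and of the mark is therefore given by the choice, and values below describe how these peaks are arranged.

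Chromatin immunoprecipitation was done on heads of flies whose genotype is labelled Actin-gal4/+ (W1118) control, which carry a Gal4 driver of broad activity, with no target of the driver named in the labels. The flies were kept at 25 °C with 12 hours of light and 12 hours of darkness, and the labels state neither age nor sex. All 16 libraries share this genotype and tissue: 3 each for ROW, WOC, HP1c and H3K4me3, 2 for HP1b and 2 for IgG. Each antibody has 1 list in which the replicates were already combined, so the spread between replicates and the depth per library are unknown and no comparison below has a test. Intervals are 95% intervals over regions (Wilson for shares, exact order statistics for medians) and cover counting error only. The heads hold many cell types, and separate immunoprecipitations cannot show whether proteins at 1 place sit there in the same cells.

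ROW and WOC are zinc-finger proteins of the fly that bind HP1c and are needed for its placement in euchromatin. HP1c and HP1b belong to the heterochromatin protein 1 family, whose chromodomain recognises methylated histone tails; in flies HP1c is found mainly in euchromatin and HP1b in both euchromatin and heterochromatin. H3K4me3 is laid down on the nucleosomes next to the start sites of active genes, and the start site itself is usually poor in nucleosomes. No gene annotation of the build was used, so the regions are given by position and not by gene.

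All 4 factors were held by 830 autosomal regions (14.1% of 5880), and 337 of them met the mark, a share of 40.6% (95% CI 37.3 to 44.0) beside 37.3% of all autosomal factor regions. The share differed between combinations. Regions with ROW, WOC and HP1c were marked at 58.3% (54.7 to 61.9, 418 of 717), those with ROW, WOC and HP1b at 48.6% (37.6 to 59.8, 36 of 74) and those with ROW and WOC alone at 70.0% (67.4 to 72.4, 936 of 1338). Where both HP1 proteins were present without the full ROW and WOC pair, few regions were marked. The share was 5.97% with ROW (4 of 67), 2.84% with WOC (5 of 176) and 3.83% with neither (7 of 183). Low shares were not particular to regions with both HP1 proteins. HP1c alone was marked at 4.07% (32 of 786), HP1b alone at 4.97% (15 of 302) and WOC with HP1c at 5.26% (8 of 152). Regions with ROW alone stood at 38.9% (313 of 805) and with WOC alone at 22.1% (51 of 231). Among regions that hold both HP1 proteins, 337 of the 353 marked ones (95.5%) also held ROW and WOC, against 830 of all 1256 (66.1%). These shares rest on the same peaks as the choice of the regions and were not tested.

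**Figure D1:**
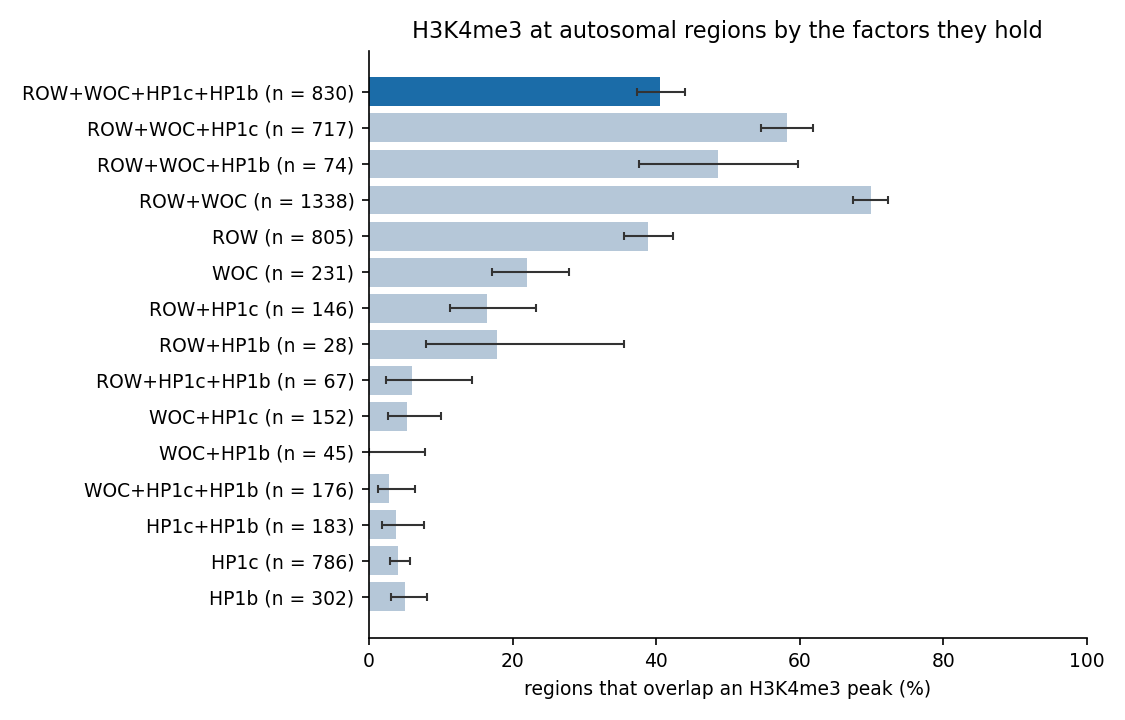
Share of autosomal factor regions that overlap an H3K4me3 peak, in percent, for each combination of factors, with the four-factor regions in dark blue; bars are shares, lines are 95% Wilson intervals and n is the number of regions. Four-factor regions stand at 40.6%, and combinations with HP1c and HP1b but without the ROW and WOC pair stand below 6%. HP1c alone and HP1b alone also stand below 6%.

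The regions held 8.43% of autosomal ROW peaks (339 of 4022), 9.61% of WOC peaks (346 of 3600), 11.3% of HP1c peaks (349 of 3082) and 19.9% of HP1b peaks (343 of 1720). The 4 lists differ in length, and the shortest, HP1b, has the highest share. In 316 of the 337 regions each factor had exactly 1 peak. Another 21 held 5 to 7 peaks, with a factor split into several peaks most often for HP1c (12 regions) and WOC (9 regions), then HP1b (5) and ROW (2). The 4 factors met at 1 place in nearly every region: in 335 of 337 a stretch of DNA was covered by all 4, with a median length of 332 bp (313 to 349) and a range of 2 to 1061 bp. In the other 2 regions the overlaps formed a chain without a common stretch, at 21657069 to 21658966 on 2L and 23117863 to 23120641 on 3L. There the HP1c and HP1b peaks (308 and 283 bp on 2L, 475 and 375 bp on 3L) lay apart along ROW and WOC peaks of 1567 to 2628 bp.

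The peaks of the 4 factors were concentric and of unequal width. ROW peaks had a median width of 766 bp (740 to 799) and WOC peaks 686 bp (671 to 719). HP1c peaks were narrower, at 479 bp (460 to 501), and HP1b peaks narrower again, at 372 bp (357 to 390). Centres lay close together, with median distances of 28 bp between ROW and WOC, 41 bp between HP1c and HP1b and 62.5 bp between ROW and HP1b. The narrower peaks lay mostly inside the ROW and WOC peaks. HP1c was wholly inside WOC in 221 regions (65.6%), and HP1b inside HP1c in 154 (45.7%, 40.5 to 51.0). HP1b was wholly inside ROW in 261 regions (77.4%) and inside WOC in 259 (76.9%), HP1c inside ROW in 252 (74.8%), and WOC inside ROW in 195 (57.9%). The reverse was rare, with ROW inside HP1b in 14 regions (4.15%). ROW was the widest of the 4 in 251 regions (74.5%) and HP1b the narrowest in 232 (68.8%), and the full order ROW, WOC, HP1c, HP1b held in 172 (51.0%, 45.7 to 56.3).

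Four-factor regions without H3K4me3 also had centres close together, but their widths had another order. Median centre distances there were 39 bp between ROW and WOC, 51 bp between HP1c and HP1b and 59 bp between ROW and HP1b. In these 493 regions ROW had a median of 443 bp (418 to 471), WOC 488 bp (465 to 511), HP1c 515 bp (493 to 544) and HP1b 451 bp (435 to 472). ROW and WOC medians were thus higher at the marked regions, by 323 and 198 bp, and the differences of marked minus unmarked were -36 bp in HP1c and -79 bp in HP1b. The intervals of marked and unmarked regions do not overlap for ROW, WOC and HP1b, and they overlap for HP1c. ROW was wider than HP1b in 302 of the 337 marked regions (89.6%, 85.9 to 92.4), against 234 of the 493 unmarked ones (47.5%, 43.1 to 51.9). The order ROW, WOC, HP1c, HP1b held in 51.0% of marked and 7.71% of unmarked regions (38 of 493). HP1c was the widest at 8.90% of marked regions (30) and at 40.8% of unmarked ones (201). Widths of different antibodies depend on depth and antibody, so the order among factors is read only against the same lists at other regions.

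A wide factor peak meets an H3K4me3 peak more easily, and the choice of regions uses that overlap. How far this sets the widths was not tested. Among the 369 four-factor regions whose centre lay within 1 kb of an H3K4me3 summit, ROW had 743 bp, WOC 679 bp, HP1c 478 bp and HP1b 376 bp, against 434, 488, 519 and 453 bp at the 461 regions without a summit that near. This grouping by summit was added after the values were seen, and 321 of its 369 regions are among the 337. Centre here means the middle of the stretch covered by all 4 factors.

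On each set of contigs that the choice left out, the median ROW width was also higher at marked four-factor regions, by differing amounts. On X, 13 marked four-factor regions had median widths of 814 bp for ROW and 387 bp for HP1b, against 431 and 433 bp at 65 unmarked ones. With so few marked regions on X, the intervals for ROW overlap (419 to 1434, against 385 to 469). On chromosome 4, which is small and rich in heterochromatin, 49 marked regions had 1472 bp for ROW and 544 bp for HP1b, against 560 and 521 bp at 77 unmarked ones. On the heterochromatin (Het) contigs, 35 marked regions had 891 bp for ROW and 406 bp for HP1b, against 415 and 473 bp at 165 unmarked ones. ROW was wider than HP1b at 84.6% (57.8 to 95.7) of marked and 47.7% (36.0 to 59.6) of unmarked regions on X, where the intervals overlap, at 85.7% and 58.4% on chromosome 4, and at 82.9% and 37.6% on the Het contigs. On chromosome 4 the HP1b median was the higher one with the mark (439 to 699, against 431 to 615 without it), with intervals that overlap.

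**Figure D2:**
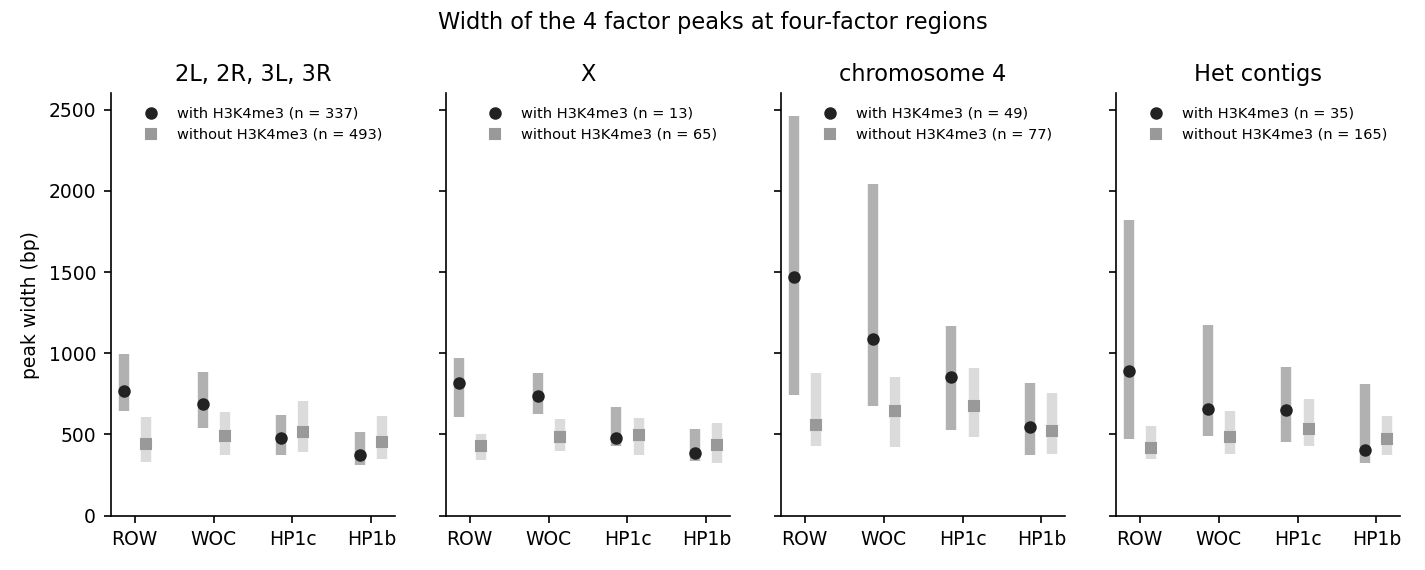
Peak width in bp of ROW, WOC, HP1c and HP1b at four-factor regions with H3K4me3 (dark circles) and without it (grey squares), for the autosomal arms, X, chromosome 4 and the Het contigs; symbols are medians, bars span the quartiles and n is the number of regions. On the autosomal arms ROW has the highest median at marked regions (766 bp) and the lowest at unmarked ones (443 bp).

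Marked regions with HP1c but no HP1b, and those with neither, had narrower ROW and WOC peaks than marked four-factor regions. A wide ROW or WOC peak joins an HP1 peak more easily, so width is part of how these classes were formed. How far this sets the order was not tested. ROW had a median of 766 bp at marked four-factor regions, against 662.5 bp (644 to 680) at 418 marked regions with ROW, WOC and HP1c and 529.5 bp (521 to 543) at 936 with ROW and WOC alone. WOC had 686 bp, against 560.5 bp and 428.5 bp. HP1c had 479 bp with HP1b beside it and 328.5 bp (321 to 343) without it. Across 335 four-factor regions with a common stretch, ROW and WOC widths went together (Spearman's rho 0.861), HP1c and HP1b widths less closely (0.605), and ROW and HP1b widths least (0.266). These correlations are across regions, which share the same 4 lists, and carry no test. At the 493 unmarked regions rho was 0.615 between ROW and WOC, 0.592 between the HP1 proteins and 0.423 between ROW and HP1b.

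The choice fixed that each region meets H3K4me3 somewhere, so shares for its parts can only be lower and are given as a description. The median overlap was 281 bp (263 to 317), and the median share of region width was 34.1%. The common stretch met an H3K4me3 peak in 187 regions (55.5%, 50.2 to 60.7), and its centre lay inside one in 84 regions (24.9%, 20.6 to 29.8). The ROW peak itself overlapped the mark in 328 of 337 regions (97.3%), the WOC peak in 318 (94.4%, 91.4 to 96.4), the HP1c peak in 243 (72.1%, 67.1 to 76.6) and the HP1b peak in 200 (59.3%, 54.0 to 64.5). All 4 peaks touched it in 189 regions (56.1%), ROW and WOC without either HP1 protein in 68 (20.2%), and ROW, WOC and HP1c without HP1b in 46. The 4 shares of overlapping peaks have the order of the median widths. The centres of the 4 peaks lay inside an H3K4me3 peak in 94 regions when taken from ROW (27.9%), 77 from WOC (22.8%), 84 from HP1c (24.9%) and 85 from HP1b (25.2%). The 4 shares of centres have intervals that overlap.

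Most centres lay beside the mark's summit, the position of its highest signal, and not on it. The median distance from the centre of the common stretch to the nearest summit was 438.5 bp (420 to 459.5), with quartiles at 358.5 and 566 bp. Within 200 to 600 bp lay 239 regions (70.9%, 65.9 to 75.5), under 200 bp 24 (7.12%) and over 1 kb 16 (4.75%). ROW centres were 437 bp (424.5 to 451) from the summit in these regions, against 393.5 bp (382.5 to 408) at marked regions with ROW, WOC and HP1c and 329.25 bp (319.5 to 335.5) at those with ROW and WOC alone. The 3 intervals are separate, and the median ROW width has the same order over these classes.

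**Figure D3:**
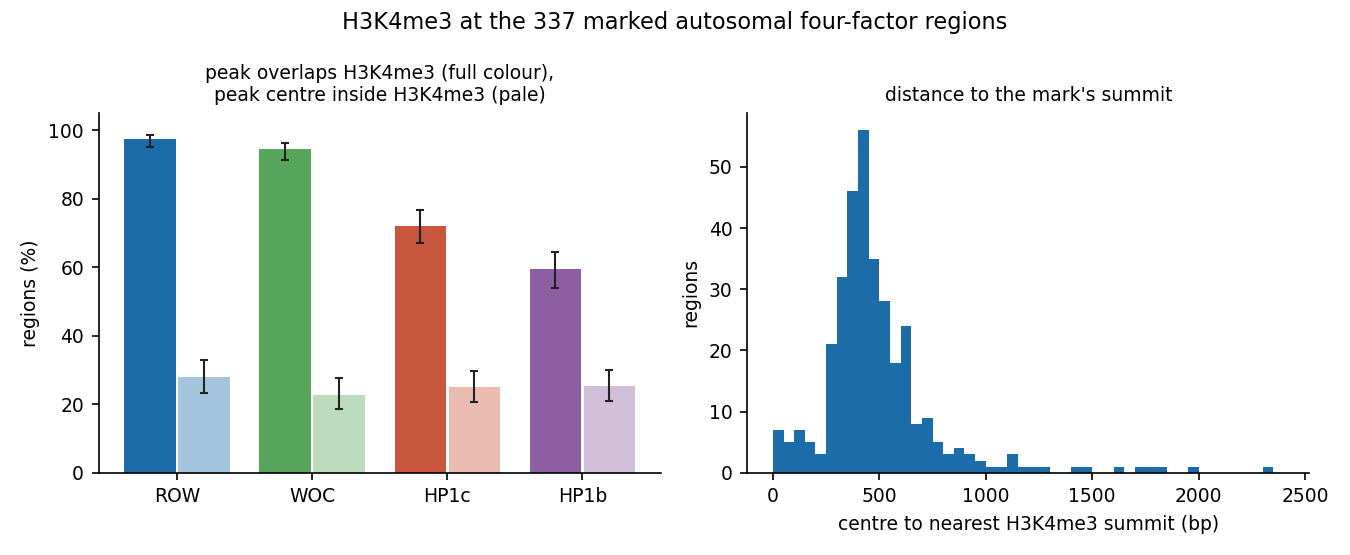
Left, percent of the 337 marked four-factor regions in which the peak of each factor overlaps H3K4me3 (full colour) or has its centre inside an H3K4me3 peak (pale), with 95% Wilson intervals. Right, number of regions by distance in bp from the centre of the common stretch to the nearest H3K4me3 summit; most regions lie between 200 and 600 bp, around the median of 438.5 bp.

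A single H3K4me3 peak was overlapped by 261 regions and a pair of them by 76 (22.6%, 18.4 to 27.3), with summits on both sides of the centre in 73. The pair was found at 24.9% of marked regions with ROW, WOC and HP1c (21.0 to 29.2) and at 19.2% of those with ROW and WOC alone (16.8 to 21.9), so the intervals overlap those of four-factor regions. Between the paired peaks was a gap of 514.5 bp in the median (422 to 589, range 244 to 1953), with 1040.5 bp from summit to summit. The centre of the common stretch lay in this gap in 70 of 76 regions and at a median of 70.25 bp from its middle. ROW reached into both marks in all 76 regions, and WOC in 68 (89.5%). HP1c reached both in 12 (15.8%) and HP1b in 7 (9.21%). The HP1b peak lay wholly inside the gap in 28 regions (36.8%) and the HP1c peak in 21 (27.6%). A region must reach both marks to be counted here, so wide peaks are part of how these regions were found. The paired regions had wider ROW (895.5 bp) than the 261 with 1 mark (730 bp), while HP1b had 360 bp in the paired regions and 374 bp in those with 1 mark. The ratio of fold enrichment of the stronger to the weaker mark of a pair had a median of 1.27 and a highest value of 2.15. Unpaired H3K4me3 peaks were not set beside this ratio. Fold enrichment over all autosomal H3K4me3 peaks has a narrow spread, with quartiles at 2.95 and 4.67.

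Regions with 1 H3K4me3 peak and a common stretch (259) were turned so that the mark lay on the right. ROW reached 391 bp from the centre toward the mark (375.5 to 414) and 331 bp away from it (311 to 341.5), and it reached further toward the mark in 170 regions (65.6%, 59.7 to 71.2). The median difference within a region, toward minus away, was 51 bp in ROW (29 to 78). It was 9 bp in WOC (-2 to 26) and 7 bp in HP1c (0 to 26), with intervals that reach 0, and in HP1b it was 0 bp. The centre is that of the common stretch, so an HP1b peak that equals this stretch gives 0 bp by construction. WOC reached further toward the mark in 138 regions (53.3%), HP1c in 135 (52.1%) and HP1b in 63 (24.3%, 19.5 to 29.9). HP1b reached 181 bp toward the mark (172.5 to 193) and 197.5 bp away from it (185 to 214). A peak that leans toward the mark meets it more easily, and the choice of regions used that overlap. The near edge of the mark began 156 bp from the centre in the median and its far edge ended at 874.5 bp. A second H3K4me3 peak, not touching the region, lay within 1 kb on the other side in 33 of 259 (12.7%).

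**Figure D4:**
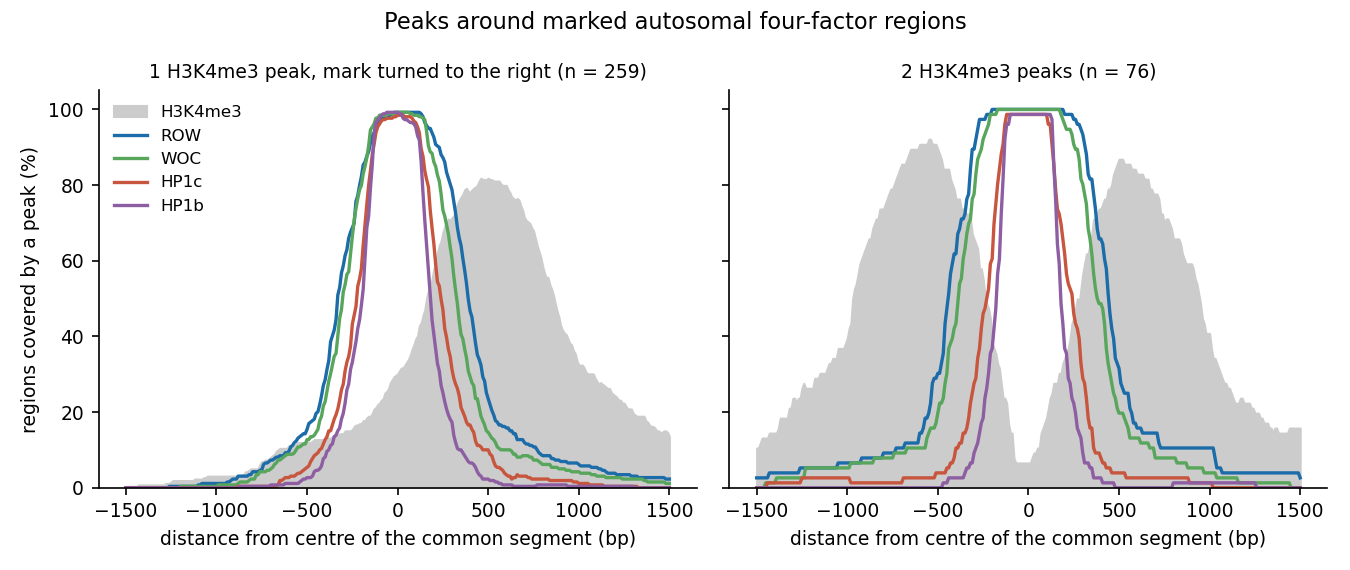
Percent of marked four-factor regions covered by the longest peak of each factor or by the overlapped H3K4me3 peaks, by distance in bp from the centre of the common stretch, for 259 regions with 1 H3K4me3 peak (left, turned so that the mark lies to the right) and 76 with a pair of them (right). At the centre H3K4me3 covers 30.1% of regions with 1 mark and 6.58% of those with a pair, and at 500 bp to the right 81.9% and 86.8%.

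The H3K4me3 peaks at these regions were a little stronger than the autosomal list as a whole, by the authors' fold enrichment over IgG at the summit. The strongest peak of each region had a median of 4.50 (4.31 to 4.69, range 1.40 to 9.36), and 231 of 337 regions stood above the median of 3.85 of all 4488 autosomal H3K4me3 peaks. That sets the strongest peak of a region beside single peaks. By region, marked regions with ROW, WOC and HP1c had 4.44 (4.34 to 4.57) and those with ROW and WOC alone 4.36 (4.28 to 4.41). Both intervals overlap that of the four-factor regions. Counted by peak, the 408 marks at these regions had a median of 4.25 (4.16 to 4.39), against 4.18 (4.12 to 4.23) for 2064 marks at other factor regions and 3.26 (3.21 to 3.36) for 2016 marks without a factor. Their median width was 732.5 bp, against 688.5 and 596 bp. The regions spread widely: 10% of them were at or under 2.69, against 3.36 at marked regions with ROW, WOC and HP1c. Across the regions, Spearman's rho of fold enrichment with ROW width was 0.248, and rho was 0.167 for WOC, 0.0340 for HP1c and -0.0454 for HP1b. In the 112 regions of lowest fold (1.40 to 3.92) ROW had a median of 706 bp and HP1b of 373 bp, and in the 113 of highest fold (5.13 to 9.36) ROW had 864 bp and HP1b 381 bp. The 113 held 31 of the 53 regions within 2 Mb of the centromere-proximal end of an arm, which had wide ROW peaks. The 112 of lowest fold held 14 of them, and the 112 in between 8.

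The strongest mark of all autosomal H3K4me3 peaks was at 1 of these regions, at 10357152 to 10357922 on 3L, with a fold enrichment of 9.36. That region broke the usual order, with HP1c (751 bp) and HP1b (747 bp) wider than ROW (523 bp) and WOC (558 bp), and its centre lay 87 bp from the summit inside an H3K4me3 peak of 3505 bp. Among the marked four-factor regions, the next was at 675842 to 677784 on 2R (fold enrichment 8.85). It had ROW at 1943 bp, WOC at 1135 bp, HP1c at 480 bp and HP1b at 296 bp, and a common stretch of 43 bp. Another 3 shared a fold enrichment of 8.34: 22690255 to 22691614 on 2L, 403526 to 405892 on 2R and 16404932 to 16406189 on 3L. Their ROW peaks were 1360, 2359 and 1258 bp wide and their HP1b peaks 330, 311 and 472 bp. In 3 of the 5 regions the HP1b peak did not touch the mark.

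Among the 5 widest common stretches, 2 lay beside marks above the median of 4.50 over the regions, and the rest beside weak marks. The first was at 2159512 to 2160572 on 3R (1061 bp), with a fold enrichment of 2.002, the next at 21420828 to 21421867 on 2L (1040 bp, 2.10) and a further one at 21520664 to 21521596 on 2L (933 bp, 1.99). At both 2L regions the 4 peaks were close in width, as at 21420741 to 21421981, where ROW had 1127 bp, WOC 1102 bp, HP1c 1082 bp and HP1b 1154 bp. Neighbours of these 2L regions had weak marks too. The former was in a run of 3 regions at 21416085 to 21427055 (1.65 to 2.10), and the latter lay near a region at 21530284 to 21531293 (1.40). The remaining 2 of the 5 widest were at 7856837 to 7857795 on 2R (959 bp, between marks of 5.54 and 4.34) and 10238564 to 10239428 on 2L (865 bp, 5.05). No region overlapped more than 2 H3K4me3 peaks. The widest with a pair was at 22129737 to 22132409 on 2L, where a ROW peak of 2673 bp joined marks of 5.31 and 2.57. At 22247618 to 22250159 on 2L, ROW (2542 bp), WOC (2358 bp) and HP1c (2266 bp) all spanned a gap between marks of 4.64 and 7.64, and HP1b (575 bp) touched neither.

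Of the 3 regions nearest the medians in both width and fold enrichment, 2 had the order ROW, WOC, HP1c, HP1b. At 13620243 to 13621036 on 3R, ROW had 794 bp, WOC 671 bp, HP1c 551 bp and HP1b 349 bp, and the centre lay 435.5 bp from a summit of fold enrichment 4.59. At 5556275 to 5557061 on 3R the widths were 737, 678, 634 and 423 bp in the same order, at 271.5 bp from a summit of 4.52. At 17332344 to 17333146 on 3L they were 599, 636, 630 and 642 bp, which is not the common order, at 519.5 bp from a summit of 4.41. The edge of the choice was at 1 bp of overlap. The smallest overlaps were 4 bp at 1290451 to 1291000 and at 22624027 to 22624825 on 3R, and 5 bp at 21520605 to 21521692 on 2L. Just outside it, the regions at 9498390 to 9498910 on 3L, 13624069 to 13624803 on 3R and 7258616 to 7259498 on 2R ended 0, 3 and 5 bp from an H3K4me3 peak. The 493 unmarked regions as a group lay far from the mark, with a median gap of 8264 bp (6783 to 10286).

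Regions whose widest peak was of an HP1 protein formed a smaller group of 47, set apart here after the values were seen. Their strongest mark had a median fold enrichment of 3.13 (2.46 to 4.26), against 4.76 (4.46 to 4.98) for the 251 regions in which ROW was widest. The 47 include neighbours with weak marks. Among them are the 4 regions at 27898572 to 27904094 on 3R (1.79 to 2.34). On 2L they include 21416085 to 21416996 (1.65) and 21420741 to 21421981 (2.10). The interval counts such neighbours as independent. The 39 regions in which WOC was widest had 4.24 (3.69 to 4.77). A pair of marks was met by 0 of the 47, 4 of the 39 and 72 of the 251, and a region with wide ROW reaches a pair more easily. The distance from centre to summit was 443 bp in the 47, against 438.5 bp in the 251. The centre lay inside an H3K4me3 peak in 20 of the 47 (42.6%, 29.5 to 56.7). That was the case in 58 of the 251 (23.1%, 18.3 to 28.7), and the 2 intervals do not overlap. The HP1b peak touched the mark in 74.5% of the 47 (60.5 to 84.7) and 59.0% of the 251 (52.8 to 64.9).

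Arm 2L held 103 of the 337 regions (30.6%, 25.9 to 35.7), 3L 89 (26.4%), 2R 74 (22.0%) and 3R 71 (21.1%, 17.1 to 25.7). Some 2L regions were close neighbours: 6 lay within 10387547 to 10419219, 3 within 10366154 to 10376400 and 3 within 21416085 to 21427055. The intervals count neighbours as independent, and how far such clusters set the share of 2L was not tested. Of all 5880 autosomal factor regions, 24.2% lay on 2L and 27.0% on 3R, and of autosomal H3K4me3 peaks 22.9% and 29.3%. Four-factor regions without the mark had 26.4% on 2L (22.7 to 30.4) and 21.5% on 3R (18.1 to 25.3), with intervals that overlap those of the marked regions on both arms. Within 2 Mb of the centromere-proximal end of an arm, as set by the outermost peaks, lay 53 regions (15.7%, 12.2 to 20.0), against 27.0% of unmarked four-factor regions (23.2 to 31.1), 9.81% of marked regions with ROW, WOC and HP1c, 5.13% of those with ROW and WOC alone and 6.80% of autosomal H3K4me3 peaks. Of all autosomal factor regions, 12.9% were proximal (12.1 to 13.8), an interval that overlaps that of the marked four-factor regions. The arms differed: 21 of the 53 lay on 2L, 18 on 2R, 5 on 3L and 9 on 3R. As shares of the 337 these were 6.23%, 5.34%, 1.48% and 2.67%. Of autosomal H3K4me3 peaks, 2.21%, 1.34%, 0.624% and 2.63% lay at the same arm ends, so 3R showed little difference. These 53 had wider ROW peaks (1179 bp, 973 to 1498) than the other 284 (741 bp, 713 to 769), and a higher fold enrichment of the mark (5.59, 4.59 to 6.21, against 4.39, 4.21 to 4.59). ROW was wider than HP1b in 86.8% of the proximal and 90.1% of the other regions.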

How the data were processed

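Per the submitters' processing notes, reads were handled with Bowtie2, SAMtools, MACS2 and deepTools on build dm3; no version, role or threshold is stated for them. Positions in bp are all that the deposited factor lists give. For each H3K4me3 peak the authors also deposited a summit, a fold enrichment (a ratio) and the -log10 of a q-value (3.02 or more), and per the file's peak names MACS2 called it against IgG. How replicates were combined is not stated, and depth is unknown. Coordinates are dm3, printed 1-based.

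Factor peaks were joined by overlap of 1 bp. A factor's width is that of its longest peak in a region. The centre is the middle of the longest stretch shared by all 4 factors, or of the region in the 2 without one. The joining was checked on 400 simulated regions, all given back. Each had at most 1 peak per factor, all over 1 shared point, and stood far from the next. Chains without a common stretch, split peaks and close neighbours were therefore not checked. Named regions are the 5 of highest fold enrichment, the 5 with the widest common stretch, the 3 widest with most marks, 3 on each side of the edge of the choice, the 3 nearest the medians and the 3 closest pairs; runs, arm ends and regions without a common stretch were added after their values were seen. Regions, lists and measures were chosen with earlier results of these data known. Planned analyses of genes and motifs were not run, since no dm3 genome or annotation was used. Versions were 3.11.15 (Python), 2.4.6 (NumPy), 2.3.3 (pandas), 1.17.1 (SciPy) and 3.10.9 (matplotlib).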

Additional observations from a re-analysis of the deposited data

How the results depend on the processing

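No paired analysis was possible because replicates were combined into a single list per antibody; leaving out a replicate was not possible for the same reason, and the motif alternative was not run. Of 77 alternatives, 57 stayed within the 95% interval of the value given (for counts, within 1.5 times) and 20 did not. The 57 include alternatives that could hardly change a value. Merging at 0.5 of the shorter peak gave 336 regions, and asking for a common stretch kept 335 of the 337. Factor peaks wider than the median of their list left 141 regions, 46.1% of four-factor regions, with widths of 929 bp (ROW), 810 bp (WOC), 624 bp (HP1c) and 531 bp (HP1b) and 499.5 bp to the summit. The marked share was 34.3% with at least 100 bp of overlap, 47.7% with a mark within 500 bp, 29.4% with H3K4me3 peaks above the median -log10 q and 31.45% above the median fold. H3K4me3 peaks above the median -log10 q also gave 16.39% with a pair of marks, a fold enrichment of 5.08 and ROW wider than HP1b in 94.3%. At least 100 bp of overlap gave 16.84% with a pair, and for each peak 82.5% (ROW), 73.0% (WOC), 45.7% (HP1c) and 35.6% (HP1b). The centre of the H3K4me3 peak in place of its summit gave 512.5 bp. The cause was not tested, except that stricter definitions leave fewer peaks by construction. ROW was wider than HP1b in 87.2% to 94.3% of marked regions, against 46.4% to 53.9% of unmarked ones, in the 5 alternatives for which both were computed, all chosen after seeing the data.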

Other observations

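Most regions stood alone: 251 had no other within 10 kb, and 86 formed 35 runs in which neighbours lay at most 10 kb apart. The longest run held 6 regions over 31673 bp at 10387547 to 10419219 on 2L, with fold enrichments from 2.28 to 7.60, and a run of 3 lay at 10366154 to 10376400 on the same arm. A run of 4 lay at 21610281 to 21628492 on 3L (4.18 to 6.21). Another run of 4, at 27898572 to 27904094 on 3R, ended 806 bp before the last peak of any list on that arm, and its marks were weak (1.79 to 2.34). It held the closest neighbours, 381 and 382 bp apart. In all 4 of its regions HP1c was wider than ROW, as in the region at 27899585 to 27900169 with 585 bp for HP1c and 446 bp for ROW. The last factor peaks of 2R also belonged to such a region, at 21146153 to 21146636, with a fold enrichment of 2.55. In the last 100 kb of the 4 arms on the side away from the centromere lay 7 of the 337 regions (2.08%, 1.01 to 4.22), against 7 of 493 unmarked four-factor regions (1.42%), 0 of 418 marked regions with ROW, WOC and HP1c and 0 of 936 with ROW and WOC alone (which allow up to 0.911% and 0.409%, the upper ends of their intervals). Of all autosomal factor regions, 52 of 5880 lay there (0.884%, 0.675 to 1.16), an interval that overlaps that of the 337 regions, and 24 of 4488 H3K4me3 peaks (0.535%).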
